A study of Mus musculus with 12 samples.

Results

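Cd5, Cd6, Cd69, Egr1, Egr2, Egr3, Nr4a1, Nr4a3 and Nab2 are genes whose RNA is known to follow the strength of signals through the T cell receptor in thymocytes. These 9 genes were taken by name, not by their values, out of 18193 genes with a probe set on Affymetrix mouse genome arrays, which read RNA abundance as the brightness of short probes. They were followed through 12 arrays in 5 groups. The ZNF112 cell line (1 array) is described only as a cell line of unsorted cells. T lymphoma came from mice carrying the ZMYM2-FGFR1 fusion kinase and had been passed through the third serial transplant (4 arrays). In 3 of these tumours, taken unsorted, at least 90% of the cells were GFP+Thy1+DP+, where GFP is a fluorescent marker protein and DP means CD4+CD8+ double-positive; the fourth tumour was sorted for such cells. Normal Thy1+DP+ thymocytes were sorted from Balb/c thymus in pools of 3 mice (3 arrays). LSC, the leukemia stem cells, had the phenotype GFP+ Lin-Sca-1+c-kit+ and were sorted from bone marrow and spleen of ZMYM2-FGFR1 mice, 2 to 3 mice to a pool (2 arrays). HSC, the haematopoietic stem cells, had the phenotype Lin-Sca-1+c-kit+ and were sorted from bone marrow of normal Balb/c mice, 5 mice to a pool (2 arrays). The labels give no fusion construct, promoter or age, and no strain for the lymphoma, LSC and cell line samples.

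When a T cell receptor binds its ligand, kinases at the membrane start the ERK, calcium and NF-kB branches of the signal. ERK induces the early growth response factors within a short time, and calcium is needed for full induction of the NR4A orphan nuclear receptors. Double-positive thymocytes that receive a weak signal survive and mature, which is called positive selection, and those that receive a strong signal are deleted. Cd5 and Cd6 encode related scavenger receptor domain proteins on the T cell surface, and the level of CD5 is set by the strength of the signal that selected the cell. CD69 appears on the surface shortly after a signal and holds cells in tissue by opposing the sphingosine phosphate receptor S1PR1. Egr1, Egr2 and Egr3 encode zinc finger transcription factors, Nab2 encodes a corepressor that binds them and is itself one of their targets, and Nr4a1 (Nur77) and Nr4a3 (Nor-1) encode orphan nuclear receptors used as reporters of the signal.

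Values are log2 intensities after the submitters' RMA normalization. Array medians were 99.5 to 109 on the linear scale in the T cell samples (cell line, lymphoma and thymocytes) and 44.3 to 46.1 in LSC and HSC, so the sides looked normalized apart. Differences were therefore taken only within a side, and levels across sides were set side by side as percentile ranks within an array. All 9 genes passed the filter on low values, a log2 intensity over 6.33 in at least 2 arrays. This level was the same for all arrays and so stricter in LSC and HSC. A linear intensity of 83.2 ranked at percentile 61.5 in HSC 1, while 81.7 ranked at 44.8 in the cell line. DP thymocytes were alike (mean correlation with their own group 0.995), T lymphomas less so (0.898 to 0.943) and LSC least (0.795, against 0.940 in HSC). Of 9 double-positive markers measured, 8 lay above the filter level in the cell line, where Cd8b1 lay at 6.19 and Cd4 at 6.88, and 9 did so in every lymphoma and DP thymocyte array. Their levels were lower than in normal cells, however. The 9 markers summed to 37330 in the cell line and 43080 to 58770 in T lymphoma, against 103000 to 115100 in DP thymocytes. Their median log2 difference from DP thymocytes was -1.81 in the cell line and -1.30 in T lymphoma. The 6 stem cell markers were all above the filter level in HSC, while 3 were in LSC 1 and 1 was in LSC 2. Kit lay at 12.31 and 10.99 in LSC, but Hlf lay under the level there, at 5.37 and 4.77.

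The promoters are shown for members described below whose values moved together in some samples and apart in others. The RefSeq promoter table of build GRCm38.p6, which spans 250 bases before and 50 bases after a transcription start, matched 5 of the 9 genes (Cd5, Egr2, Nab2, Nr4a1 and Nr4a3). Both strands were searched for the CArG box bound by SRF, the EGR sites GCGTGGGCG and GCGGGGGCG, the core TGACG of the cyclic AMP response element and the NR4A site AAAGGTCA. Capitals mark matches and each sequence reads 5′ to 3′ on the gene's strand.
Egr2 (one of several annotated starts), chr10:67537619-67537918, plus strand: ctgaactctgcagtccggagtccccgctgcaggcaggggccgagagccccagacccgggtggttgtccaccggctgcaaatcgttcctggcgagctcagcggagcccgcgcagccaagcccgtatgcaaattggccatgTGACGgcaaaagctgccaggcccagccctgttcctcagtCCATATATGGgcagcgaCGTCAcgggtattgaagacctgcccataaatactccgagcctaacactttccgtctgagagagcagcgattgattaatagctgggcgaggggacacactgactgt
Nr4a1, chr15:101266596-101266895, plus strand: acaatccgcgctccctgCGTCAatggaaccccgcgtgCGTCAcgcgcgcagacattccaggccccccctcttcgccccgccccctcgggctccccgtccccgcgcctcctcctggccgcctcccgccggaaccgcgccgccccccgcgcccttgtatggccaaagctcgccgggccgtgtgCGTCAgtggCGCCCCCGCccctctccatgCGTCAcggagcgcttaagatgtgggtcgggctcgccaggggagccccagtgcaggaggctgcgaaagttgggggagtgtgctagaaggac
Nr4a3, chr4:48045055-48045354, plus strand: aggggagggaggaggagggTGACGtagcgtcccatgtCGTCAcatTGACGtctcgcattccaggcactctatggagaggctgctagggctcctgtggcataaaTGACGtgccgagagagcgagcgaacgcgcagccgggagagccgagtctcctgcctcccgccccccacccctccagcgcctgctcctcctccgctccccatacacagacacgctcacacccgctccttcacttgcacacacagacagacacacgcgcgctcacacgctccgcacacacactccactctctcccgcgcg
Cd5, chr19:10738925-10739224, minus strand: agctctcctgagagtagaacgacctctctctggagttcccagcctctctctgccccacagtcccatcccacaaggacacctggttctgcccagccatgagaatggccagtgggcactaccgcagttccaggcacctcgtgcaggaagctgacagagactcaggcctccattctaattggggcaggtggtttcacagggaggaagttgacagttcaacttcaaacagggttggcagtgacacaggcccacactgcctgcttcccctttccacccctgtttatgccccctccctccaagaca
The Egr2 window held a CArG box beginning at position -72 from the start and 2 TGACG cores; CArG boxes were found in 1.63% of all 32817 promoters. The Nr4a1 and Nr4a3 windows held 4 TGACG cores each. At least 1 such core lay in 20.8% of promoters, and 3 or more in 1.03%. Nr4a1 also held GCGGGGGCG on the minus strand at position -60, a site found in 2.91% of promoters. No match to these letters lay in the Cd5 window shown or in that of Nab2. GCGTGGGCG, in 0.612% of promoters, and AAAGGTCA, in 1.51%, matched in none of these 5 genes. A match is a run of letters and not a measured binding site.

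T lymphoma was set against DP thymocytes to ask how tumour cells with this surface phenotype differ from their normal counterparts. Cd5, Cd6, Egr1, Egr2 and Nab2 were lower in T lymphoma and no member was higher. These 5 of 9 calls (limma, Benjamini-Hochberg adjusted p under 0.05) stand against 3.18% of all 12797 genes tested that were called lower, 3.37% called higher and 6.55% called in either direction. The median difference of the members was -2.99 on the log2 scale, against -0.02 for all genes tested. In 6 members every lymphoma lay under every DP thymocyte array, the 5 called genes and Nr4a1, where 19.1% of all genes were ordered this way. In unsorted tumours, fewer cells of a type and less RNA per cell cannot be told apart.

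The surface receptors Cd5 and Cd6 showed the widest gaps. Cd5 lay at 5.82, 7.08 and 7.18 in the unsorted lymphomas and 6.22 in the sorted one, against 13.45, 13.34 and 13.40 in DP thymocytes. The thymocyte values stand together near the top of their arrays, while the first unsorted and the sorted lymphoma lay under the filter level, so the size of the gap rests on low values. The difference was -6.82 ± 0.33 (SE; limma, adjusted p = 4.51e-06), and by size Cd5 ranked first among all lower genes tested. Cd6 lay at 6.67, 7.68 and 7.20 in the unsorted lymphomas and 7.52 in the sorted one, against 12.43, 12.50 and 12.37 in DP thymocytes. Here every lymphoma lay above the filter level and the groups were again far apart, with a difference of -5.17 ± 0.24 (adjusted p = 2.88e-06 in the same limma fit). CD6 binds the adhesion molecule ALCAM and, like CD5, carries tyrosines in its tail that are phosphorylated after receptor ligation.

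Cd5 and Cd6 lie next to each other on chromosome 19, so the 3 genes on each side of the pair in the RefSeq order were examined as well. None of the 5 neighbours tested (Pga5, Vps37c, Slc15a3, Tmem132a and Tmem109) was called between T lymphoma and DP thymocytes by limma, and Vwce did not pass the filter. Their differences ran from -0.34 for Tmem132a to 2.00 ± 1.02 for Slc15a3 (adjusted p = 0.281), a lysosomal transporter gene. Vps37c, immediately before Cd5, differed by -0.27 and Tmem109 by 0.00.

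Egr1 is the best known ERK-induced member of the EGR factors. Egr1 lay at 9.95, 9.10 and 7.58 in the unsorted lymphomas and 8.58 in the sorted one, against 12.83, 12.85 and 12.91 in DP thymocytes. The lymphomas spread over more than 2 log2 units and still all lay below the thymocytes; the difference was -4.06 ± 0.57 (limma, adjusted p = 0.00287). Egr2, which with Egr3 is needed for thymocytes to pass through selection and for tolerance, lay at 7.30, 8.42 and 6.60 in the unsorted lymphomas and 8.82 in the sorted one. In DP thymocytes Egr2 lay at 10.71, 10.78 and 10.84. The difference was -2.99 ± 0.68 (adjusted p = 0.0322, limma), and a second probe set gave -2.97 ± 0.58 (adjusted p = 0.0162 in a limma fit of all probe sets, which called 6.22% of them). Egr2 lost its call when any 1 of the 3 unsorted lymphomas or any 1 of the 3 DP thymocyte arrays was left out (limma, adjusted p = 0.0534 to 0.124), and kept it without the sorted lymphoma. Nab2, the corepressor, lay at 6.88, 7.06 and 6.18 in the unsorted lymphomas and 7.31 in the sorted one, against 9.98, 9.99 and 10.38 in DP thymocytes. No lymphoma came within 2 log2 units of a thymocyte array, and the difference was -3.26 ± 0.39 (limma, adjusted p = 0.00125).

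**Figure D1:**
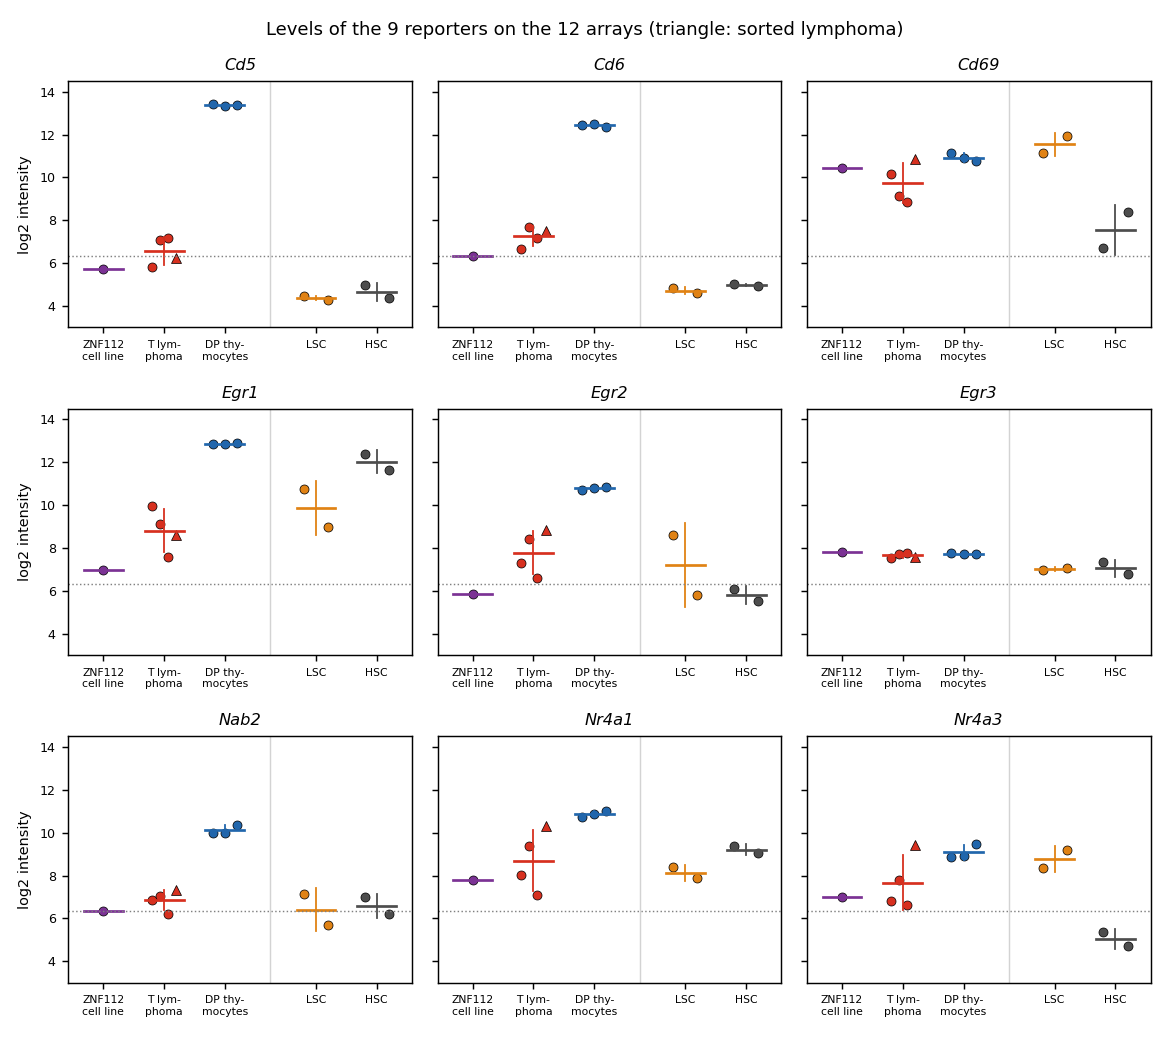
Log2 intensity of the 9 genes on each array, with the cell line, T lymphoma and DP thymocytes on 1 side of each panel and LSC and HSC on the other; points are arrays, triangles mark the sorted lymphoma, horizontal bars are group means, vertical bars 1 SD and the dotted line the filter level. Cd5 and Cd6 stand above 12 in DP thymocytes and below 8 on every other array, while Cd69 and Nr4a3 stand higher in LSC than in HSC.

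Egr3 depended on the probe set. The probe set with the higher mean, 1421486_at, was flat at 7.55 to 7.76 in the lymphomas and 7.70 to 7.78 in DP thymocytes (difference -0.08 ± 0.17; limma, adjusted p = 0.843). The other probe set, 1436329_at, lay at 5.20, 6.26 and 5.73 in the unsorted lymphomas and 5.59 in the sorted one, against 8.75, 8.86 and 8.54 in DP thymocytes. Its groups did not overlap. Its difference of -3.02 ± 1.03 was not called in the fit of all 12 arrays (limma, adjusted p = 0.122), in which the LSC arrays of that probe set lay at 8.95 and 3.29. With only the 8 T cell arrays in the fit, an alternative chosen after seeing the data, it was -3.02 ± 0.25 (limma, adjusted p = 6.51e-04). Which of the probe sets reads the Egr3 transcript was not tested.

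The NR4A receptors and Cd69 differed less, and none of them was called. Nr4a1 lay at 8.03, 9.39 and 7.07 in the unsorted lymphomas and 10.30 in the sorted one, against 10.72, 10.85 and 11.02 in DP thymocytes, a difference of -2.16 ± 0.65 (limma, adjusted p = 0.0870). Nr4a3 lay at 6.81, 7.80 and 6.63 in the unsorted lymphomas and 9.41 in the sorted one, against 8.85, 8.91 and 9.48 in DP thymocytes (difference -1.41 ± 0.61; limma, adjusted p = 0.211). In both genes the sorted tumour was the highest lymphoma, and for Nr4a3 it lay within the thymocyte range. Without the sorted lymphoma 7 members were called, and 1572 of all 12797 genes, against 838 of all genes with it. Nr4a1 was then at -2.70 (limma, adjusted p = 0.0116) and Nr4a3 at -1.998 (adjusted p = 0.0133, limma). With the sorted lymphoma as the only tumour, Egr1 was at -4.28 ± 0.67, Egr2 at -1.95 and Nab2 at -2.81. A second tested Nr4a3 probe set, 1421080_at, did not differ beyond its error (0.06 ± 0.19; limma, adjusted p = 0.905), and a further one, 1421079_at, lay under the filter level. Cd69 lay at 10.14, 9.11 and 8.84 in the unsorted lymphomas and 10.85 in the sorted one, against 11.15, 10.89 and 10.75 in DP thymocytes. Its groups overlapped, and the difference was -1.19 ± 0.54 (limma, adjusted p = 0.229).

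**Figure D2:**
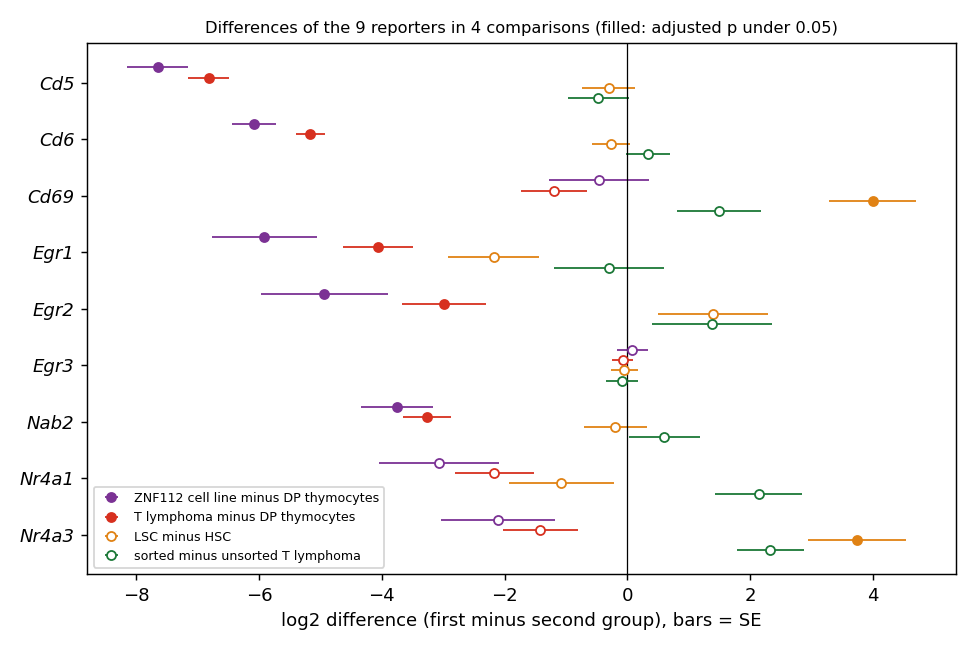
Log2 difference of each gene in 4 comparisons made within a side, with bars of 1 SE from limma; filled points were called at an adjusted p under 0.05. Cd5 and Cd6 lie furthest below 0 in T lymphoma and in the cell line against DP thymocytes, and Cd69 and Nr4a3 lie furthest above 0 in LSC against HSC.

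Markers of other cells differed between these samples too. The summed intensity of 10 macrophage markers was 26730 to 57650 in the unsorted lymphomas and 3560 in the sorted one, against 1306 to 1476 in DP thymocytes. The sum of 9 stroma and endothelium markers was 14800 to 31150 in the unsorted lymphomas and 830.4 in the sorted one, against 860.9 to 1009 in DP thymocytes. The 7 T cell markers summed to 39720 to 58620 over the 4 lymphomas, against 76610 to 86790 in DP thymocytes. The 7 NK and cytotoxic markers summed to 19940 to 68830 in the unsorted lymphomas and 23450 in the sorted one, against 1965 to 2265 in DP thymocytes. They also summed to 43710 in the ZNF112 cell line. The part of other cells in the members' differences was not tested.

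The ZNF112 cell line was set against DP thymocytes in the same way. Its single array lay below every DP thymocyte array in 8 members, as 39.6% of all genes did, and above them in Egr3, as 43% did. Cd5 lay at 5.74, Cd6 at 6.35, Egr1 at 6.95, Egr2 at 5.84 and Nab2 at 6.37 in the cell line, against thymocyte means of 13.39, 12.44, 12.86, 10.77 and 10.12. These 5 were called lower, with differences of -7.65 ± 0.50 for Cd5, -6.08 ± 0.36 for Cd6, -5.91 ± 0.86 for Egr1, -4.93 ± 1.03 for Egr2 and -3.75 ± 0.59 for Nab2 (limma, adjusted p of 8.17e-05, 3.25e-05, 0.00588, 0.0275 and 0.00812). The background was 2.52% of genes called lower and 5.3% called in either direction. The cell line had a T cell marker sum of 58820, a macrophage sum of 2076 and a stroma sum of 928.9, against thymocyte macrophage sums of 1306 to 1476 and stroma sums of 860.9 to 1009. Its NK and cytotoxic markers summed to 43710, against 1965 to 2265 in DP thymocytes. Egr2 lost its call when any of the 3 DP thymocyte arrays was left out. Its second probe set, 1427682_a_at, gave -3.62 ± 0.87 and was not called in the limma fit of all probe sets. Nr4a1 lay at 7.79 in the cell line, with a difference of -3.07 ± 0.98 (limma, adjusted p = 0.119), and Nr4a3 lay at 6.98. Cd69 lay at 10.46, close to the thymocyte mean of 10.93 (difference -0.46; limma, adjusted p = 0.909). The comparison shares its thymocyte arrays with that of the lymphomas, and for the single array limma borrowed the spread of the other groups.

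Set against T lymphoma, the cell line showed 0 calls among the 9 members (limma; 1 at an unadjusted p under 0.05, Cd6), with 1.16% of all genes called, 0.539% higher and 0.617% lower. Cd5, Cd6, Egr1 and Egr2 lay below all 4 lymphomas, where 21.6% of genes did so. Egr1 differed by -1.85 ± 0.83 (limma, adjusted p = 0.419), Egr2 by -1.94 ± 1.00 (adjusted p = 0.496) and Cd6 by -0.92 ± 0.35 (adjusted p = 0.325). Against the sorted lymphoma alone, 1 member was called, Nr4a1 at -2.51 (limma, adjusted p = 0.0443); both sides of that comparison were single arrays, so its p rests on the spread of the other groups.

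Between the sorted and the unsorted lymphomas 0 of 9 members were called (limma; 2 at an unadjusted p under 0.05, Nr4a1 and Nr4a3), with 0.656% of all genes called, 0.0625% higher and 0.594% lower. The sorted tumour lay above all 3 unsorted ones in Cd69, Egr2, Nr4a1, Nr4a3 and Nab2, an order seen in 35.8% of genes. Nr4a3 stood 2.33 ± 0.55 higher (limma, adjusted p = 0.149), Nr4a1 2.14 ± 0.72 higher (adjusted p = 0.335) and Cd69 1.49 ± 0.68 higher (adjusted p = 0.523). Without the second unsorted lymphoma, Nr4a1 stood 2.752 higher and Nr4a3 2.69 higher. Cd5 and Egr1 lay within the range of the unsorted tumours, at 6.22 and 8.58. The median of the members was 0.61, against 0.05 for all genes. Sorting, tumour and cell composition cannot be told apart with 1 sorted array. The 10 genes taken as signs of cell handling, such as Klf6 and Zfp36, had a median of 0.53 in the same comparison.

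**Figure D3:**
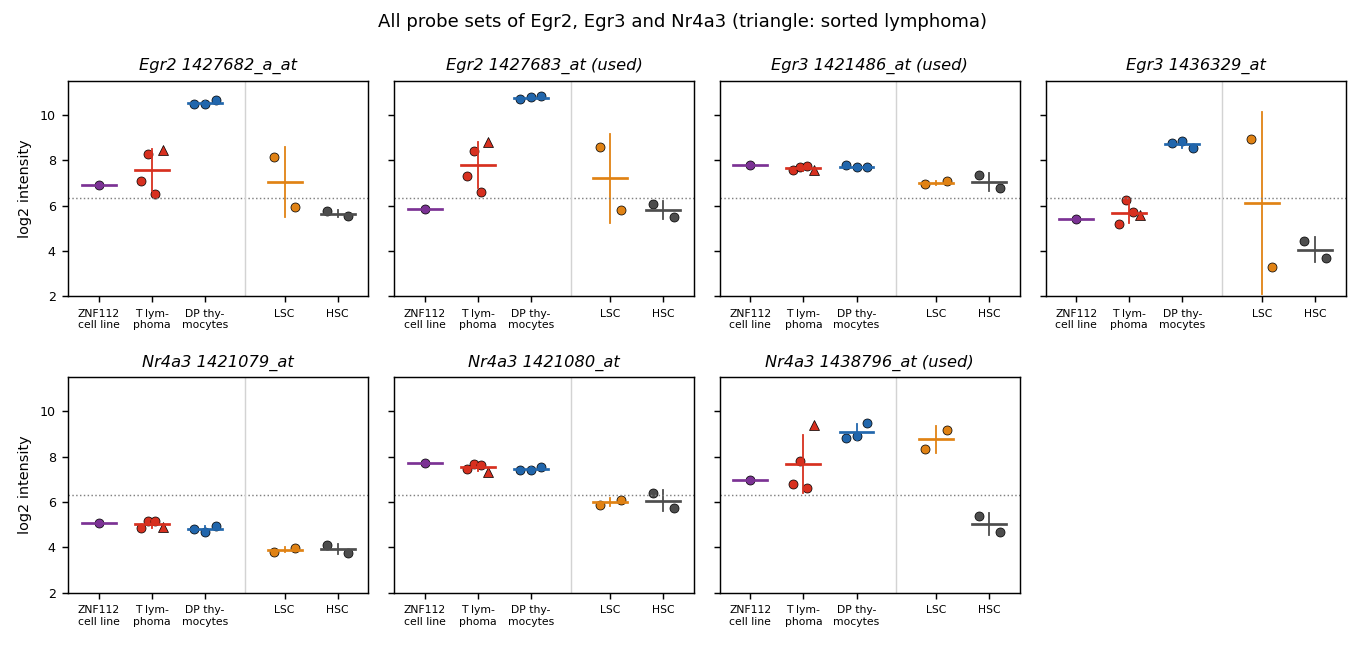
Log2 intensity of every probe set of Egr2, Egr3 and Nr4a3 on each array (points; triangles for the sorted lymphoma), with group means as horizontal bars, 1 SD as vertical bars and the filter level dotted. The 2 Egr2 probe sets run together except in the cell line, where 1427682_a_at lies at 6.93 and 1427683_at at 5.84. Among the T cell samples 1 probe set of Egr3 and 2 of Nr4a3 are flat and the remaining one of each gene is not.

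LSC were set against HSC to ask how leukaemic and normal cells of the same sorting phenotype differ. Cd69 and Nr4a3 were higher in LSC and no member was called lower (1 at an unadjusted p under 0.05, Egr1). These 2 of 9 stand against 4.05% of all genes called higher by limma, 6.21% called lower and 10.3% called in either direction. Both LSC arrays lay above both HSC arrays in 2 members and below them in 3 (Cd6, Egr1 and Nr4a1), as they did in 20.5% and 22.5% of all genes. The members' median was -0.19 and that of all genes -0.03. Cd69 lay at 11.16 and 11.94 in LSC, against 6.72 and 8.38 in HSC. Both LSC arrays stood far above both HSC arrays, by 4.001 ± 0.71 (limma, adjusted p = 0.00887). Nr4a3 lay at 8.34 and 9.20 in LSC, against 5.36 and 4.69 in HSC, a difference of 3.75 ± 0.80 (limma, adjusted p = 0.0200). The flat Nr4a3 probe set 1421080_at differed by -0.06 ± 0.25 (adjusted p = 0.912 in the limma fit of all probe sets, which called 9.2% of them). Nr4a3 lost its call without HSC 1 (limma, adjusted p = 0.0503) or without HSC 2 (adjusted p = 0.102), and at the floor of 6.33 it was 2.44 (adjusted p = 0.106). With only the LSC and HSC arrays in the fit 0 of 9 members were called (limma; 3 at an unadjusted p under 0.05), with Cd69 at an adjusted p of 0.220 and Nr4a3 at 0.188, and 0 of all genes were called there.

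The EGR factors and Nr4a1 did not follow Cd69 and Nr4a3. Egr1 lay at 10.74 and 8.95 in LSC, against 12.39 and 11.65 in HSC, so both LSC arrays lay lower; the difference of -2.17 ± 0.74 was not called (limma, adjusted p = 0.0993), except without LSC 1 (-3.07; adjusted p = 0.0288). Egr2 lay at 8.59 in LSC 1 and 5.82 in LSC 2, against 6.09 and 5.52 in HSC, a difference of 1.40 ± 0.89 (limma, adjusted p = 0.367), and was called only without LSC 2 (2.78; adjusted p = 0.0381). The Egr3 probe set 1436329_at showed the same split, at 8.95 in LSC 1 and 3.29 in LSC 2, against 4.45 and 3.67 in HSC. Nr4a1 lay at 8.40 and 7.87 in LSC, against 9.38 and 9.03 in HSC (difference -1.07 ± 0.85; limma, adjusted p = 0.472). Nab2 lay at 7.12 and 5.69 in LSC, against 6.995 and 6.20 in HSC. Cd5 and Cd6 lay under the filter level on all 4 arrays, at 4.44 and 4.30 for Cd5 in LSC, against 4.97 and 4.38 in HSC.

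The LSC arrays differed in makeup. The 7 T cell markers summed to 3426 in LSC 1 and 20330 in LSC 2, against 471 to 749.3 in HSC, and the macrophage markers to 27300 and 4084 in LSC, against 31340 and 5807 in HSC. The 7 NK and cytotoxic markers summed to 22130 and 29800 in LSC, against 846.4 and 2490 in HSC. The 7 granulocyte markers summed to 9575 and 1358 in LSC, against 31530 and 42700 in HSC. The ratio of 3′ to 5′ beta-actin probe sets, higher in degraded or shortened RNA, was 13.6 and 9.82 in LSC, against 5.79 and 3.91 in HSC. Cd69 and Nr4a3 were high in both LSC arrays. The part of other cells' RNA and of RNA quality in these differences was not tested.

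The difference between the contrasts, LSC minus HSC less T lymphoma minus DP thymocytes, was called for 6 of the 9 members. All 6 were positive, which means that LSC minus HSC was the higher contrast and not that levels were higher in LSC. Of all genes 3.59% were called in that direction, 5.28% in the other and 8.88% in either. The difference between the contrasts was 6.52 ± 0.55 for Cd5 (limma, adjusted p = 4.25e-04), 5.19 ± 0.89 for Cd69 (adjusted p = 0.00961) and 5.16 ± 1.01 for Nr4a3 (adjusted p = 0.0169). For Cd5, Cd6 and Nab2 the called difference came with LSC minus HSC values of -0.30, -0.27 and -0.19, none of them called. Cd5 and Cd6 lay under the filter level on all 4 LSC and HSC arrays and could hardly fall there, so their values restate the gap between T lymphoma and DP thymocytes. Egr2 and Nab2 also had little room to fall from HSC, where Egr2 lay at 6.09 and 5.52 and Nab2 at 6.995 and 6.20. For Egr1 the difference was 1.89 ± 0.93 (limma, adjusted p = 0.245), with the LSC and the T lymphoma arrays each below their normal counterparts. Egr2 was called in 8 of 20 alternative fits, Nab2 in 14 and Nr4a3 in 15. The Nr4a3 probe set 1421080_at gave a difference of -0.12 ± 0.32 (limma fit of all probe sets, adjusted p = 0.855). Leaving out single arrays left 3 to 6 calls, with 3 without the third DP thymocyte array and 3 without HSC 2, and array weights or the sorted lymphoma alone left 2 each.

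Percentile ranks within an array gave each gene's order across all 5 groups. Cd5 ran from DP thymocytes (mean 98.9) through T lymphoma (47.1), HSC (34.6) and the cell line (32.2) to LSC (25.1), and T lymphoma, HSC and the cell line overlapped in turn. Cd6 had DP thymocytes at 96.9, T lymphoma at 56.5, the cell line at 44.8, HSC at 41.4 and LSC at 34.2, with no overlap between neighbours. Cd69 was led by LSC at 97.1, ahead of DP thymocytes at 89.6, the cell line at 86.5, T lymphoma at 80.5 and HSC at 72.4; the last 3 overlapped in turn. Egr1 was near the top in HSC (98.3) and DP thymocytes (98.0), which overlapped, then came LSC at 89.8, T lymphoma at 71.9 and the cell line at 53.4. Egr2 and Nab2 shared a lead of DP thymocytes, at 88.6 and 83.4, with LSC, T lymphoma and HSC overlapping below. Nr4a1 was led by DP thymocytes (89.3) and HSC (87.1), which overlapped, with LSC at 79.1, T lymphoma at 70.4 and the cell line at 62.8 overlapping in turn. Nr4a3 was led by LSC at 83.8, ahead of DP thymocytes at 73.9 and T lymphoma at 59.6, with the cell line at 53.7 and HSC lowest at 41.7; T lymphoma overlapped both DP thymocytes and the cell line. The flat Egr3 probe set ranked between 61.1 in T lymphoma and 69.4 in LSC.

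**Figure D4:**
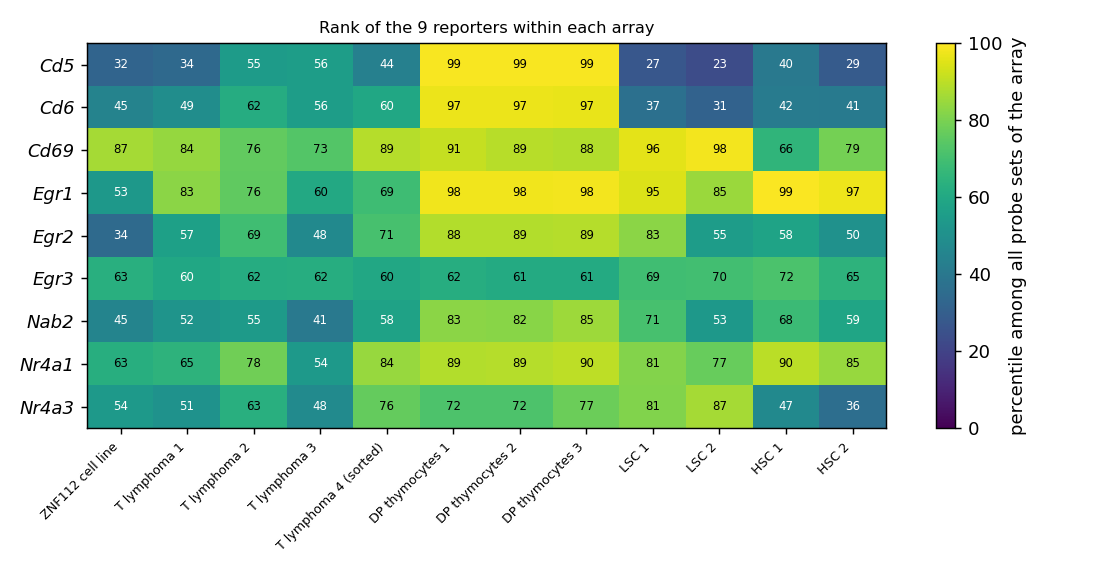
Percentile rank of each gene within each of the 12 arrays (0 lowest, 100 highest), arrays in the order cell line, T lymphoma, DP thymocytes, LSC and HSC. Egr1 is near the top of the DP thymocyte and HSC arrays, and Cd69 is near the top of the LSC arrays.

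Genes of the receptor pathway were described by lists. Among family relatives of the members, Egr4, Nab1 and Nr4a2, 0 of 3 were called in either comparison (limma; 0 at an unadjusted p under 0.05), with T lymphoma minus DP thymocytes at -0.06, -0.19 and 0.22. Egr4 and Nr4a2 lay between 6.92 and 7.61 on all 8 T cell arrays. Of 15 tested genes of the receptor complex and proximal signalling, 2 fell in T lymphoma, Rasgrp1, the exchange factor that activates Ras (-2.09 ± 0.48), and Vav1, which is phosphorylated early after receptor ligation (-0.90 ± 0.23). Of 14 receptor inhibitors, Cblb, a ubiquitin ligase that restrains signalling, rose by 1.84 in T lymphoma, while Dgkz, which removes diacylglycerol, fell by 1.92 and the adaptor Sla fell by 1.49. Of 10 genes linked to strong signals and tolerance, Il2ra and Ctla4 rose by 7.17 and 6.98, and Ikzf2, which encodes Helios, fell by 2.19.

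Of 15 positive selection genes, 3 rose in T lymphoma and 3 fell. The risers were the cytokine receptor Il7r by 4.14 ± 0.73, Runx3 by 3.33 ± 0.74 and the survival gene Bcl2 by 2.34 ± 0.28. Tox, Gata3 and Itm2a fell by 2.66, 2.30 and 1.87. On the ERK arm, 0 of 19 feedback genes and targets were called (limma; 3 higher and 5 lower at an unadjusted p under 0.05). The largest differences were those of the feedback inhibitor Spry1 at 2.89 (adjusted p = 0.0864) and Jun at 2.32 (adjusted p = 0.111), but the median of the ERK list was -0.43. In the calcium arm Nfatc2 rose by 2.18 and Nfatc3 fell by 1.47 among 9, and among 9 NF-kB genes 0 were called (limma; 0 at an unadjusted p under 0.05), with Relb at 0.79 and Malt1 at -0.64. Among the 10 cell handling genes Zfp36, which destabilises messenger RNA, fell by 2.27, and the list's median was 0.34.

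In LSC against HSC, 7 of the 15 receptor complex genes rose, led by Themis (5.90 ± 0.49), Cd3g (5.35), Cd3d (5.03) and Zap70 (3.00). Ctla4 rose by 7.85, Il2ra by 7.71 and Tnfrsf9 by 2.99 among the strong signal genes, and 5 receptor inhibitors rose, with Btla at 3.77, Cblb at 2.85, Ptpn22 at 2.32 and Sla at 2.29, while Dgkz fell by 1.21. Cd53, Bcl2 and Itm2a rose by 2.84, 2.04 and 1.73 among the positive selection genes. Nfatc2 rose by 2.32, Tnfaip3, an inhibitor of NF-kB, by 2.53 and Klf6 by 2.52, while the immediate early gene Ier2 fell by 3.90 and Zfp36 fell by 3.41. Each of these was called by limma at an adjusted p under 0.05, and 5 of the 7 T cell markers summed above are also on the receptor complex list.

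The genes whose profile came closest were found by the root mean square difference of centred log2 values over the 8 T cell arrays. For Cd5 these were Bex1 (0.611) and Tdrp (0.681), for Cd6 Ugt8a (0.402) and Dgkeos (0.493), and for Egr1 Slco3a1 (0.613) and Bcl6 (0.636). Egr2 had Plxnd1 (0.339) and Zfp354c (0.462), Nab2 had Podxl2 (0.288) and Syt13 (0.334), and Nr4a1 had Slc35d1 (0.173) and Zfp949 (0.324). Nr4a3 had Ski (0.313) and Fam78a (0.333) and Cd69 had Bag6 (0.256) and Klc4 (0.287). The flat Egr3 probe set had Hgd (0.0312) and Vmn1r54 (0.0316), whose values hardly vary either. A small value is easier to reach for a member of small spread, and the SD of the members over these arrays ran from 0.0920 for Egr3 to 3.65 for Cd5.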

How the data were processed

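Each sample was 1 array, made from Trizol-extracted RNA after amplification with an Affymetrix kit, per the labels. The file deposited by the authors holds linear intensities, 1 for each probe set, and RMA is the method named in the submitters' processing notes, with no version. Background correction and normalization were therefore the authors' own, and log2 was taken before each test. The depth of arrays is not a count; their number limits the precision. Of 45101 probe sets, 64 were controls, 34945 had 1 symbol, 932 several and 9160 none; 34741 matched RefSeq by Entrez identifier. Each of 18193 genes was represented by the probe set with the highest mean, and 12797 passed the filter. Differences were tested two-sided with limma 3.58.1 (lmFit, eBayes; R 4.3.3), with 5 group means over 12 arrays and Benjamini-Hochberg adjustment over all genes tested. The sorted lymphoma was a group of its own in the sorted against unsorted comparison. All groups shared 1 estimate of the spread, although the SD over genes (root mean square) was 0.619 in T lymphoma, 0.153 in DP thymocytes, 1.02 in LSC and 0.554 in HSC. Named genes were the members, list genes called in T lymphoma minus DP thymocytes or LSC minus HSC (at most 4 per direction, or the largest 2 without a call), family relatives, neighbours of Cd5 and Cd6, and the 2 nearest profiles. Members, lists and tests were chosen with earlier results of these data known. Other filters, probe set rules, normalization, array weights, a replicate block and leaving out single arrays were tried as alternatives. Scripts were tested on simulated data. The labels call the replicates biological. The p-values measure a spread pooled over all groups, not that of the groups compared, and for a single array none of its own.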

Additional observations from a re-analysis of the deposited data

Results flagged for a closer look

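The change between leukaemic and normal cells differed between the stem cell and the T cell samples for 6 of the 9 genes, by a limma test of the difference itself (LSC minus HSC, less T lymphoma minus DP thymocytes). On the log2 scale the difference was 6.52 for Cd5, 4.90 for Cd6, 5.19 for Cd69, 4.39 for Egr2, 5.16 for Nr4a3 and 3.07 for Nab2. Cd5 and Cd6 lay under the filter level on every LSC and HSC array, so their values restate the gap between T lymphoma and DP thymocytes. Egr2 and Nab2 lay near or under that level in HSC (6.09 and 5.52 for Egr2, 6.995 and 6.20 for Nab2), with little room to fall in LSC. Of 20 alternative fits Egr2 was called in 8, Nab2 in 14, Nr4a3 in 15, Cd69 in 18, and Cd5 and Cd6 in all 20. The second tested Nr4a3 probe set, 1421080_at, gave -0.12 ± 0.32 (limma fit of all probe sets, adjusted p = 0.855). For Cd69 and Nr4a3 the values lay higher in LSC than in HSC and lower on average in T lymphoma than in DP thymocytes, and the T cell values had no call. Among the 4 T lymphomas, the 1 group of 4 or more arrays, to which Dixon's test was applied, no array stood apart in any of the 9 genes. With 4 arrays this test can find only an array very far from the rest, so it cannot show that the tumours were alike. The sorted lymphoma lay above all 3 unsorted ones in Cd69, Egr2, Nr4a1, Nr4a3 and Nab2, an order seen in 35.8% of all genes.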

How the results depend on the processing

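Counts are of the 9 genes called by limma. For T lymphoma minus DP thymocytes, 5 in the fit reported, weighting arrays by group gave 8, the sorted lymphoma alone 3, and leaving out 1 array 4 to 7. For LSC minus HSC, 2 as reported, only the LSC and HSC arrays gave 0 (also with the probe set of highest SD, 0), array weights 0, a floor 1, and leaving out 1 array 1 to 3. For the difference of the contrasts, 6 as reported, array weights gave 2, the sorted lymphoma alone 2, and leaving out 1 array 3 to 6. The cell line minus DP thymocytes gave 5 as reported and 4 without any 1 thymocyte array, and the cell line minus T lymphoma 0, or 1 against the sorted lymphoma alone. Sorted minus unsorted gave 0, or 0 to 2 without 1 unsorted array.

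Signs turned only in uncalled values, with 1 exception, and the causes were not tested. With the sorted lymphoma alone Nr4a3 in T lymphoma minus DP thymocytes was 0.33, Nr4a1 in the difference of the contrasts -0.51 and Cd69 in the cell line minus T lymphoma -0.39. Egr3 in LSC minus HSC was 0.11 after quantile normalization, 1.01 as the mean of probe sets and 2.06 with the probe set of highest SD, with all arrays or those of its side, alternatives added after seeing the data. Nab2 there was 0.062 with a floor. Without 1 array Egr3 there was -0.32 to 0.23 and Nab2 -0.91 to 0.52, Egr3 in the difference -0.25 to 0.31, and Egr1 in sorted minus unsorted -0.94 to 0.25. Egr3 in the cell line minus DP thymocytes was -1.62 as the mean, -3.32 with the probe set of highest SD, and the same -3.32 but called with the T cell arrays alone, the exception; minus T lymphoma it was -0.067 and -0.30. Replicate numbers were used as a replicate block in another fit, which called 7 members in T lymphoma minus DP thymocytes, 2 in LSC minus HSC and 6 in the difference. Of all genes it called 1014, 822 and 1005 in these comparisons. Over all genes, the difference gave 1136 calls as reported, 251 with array weights and 446 to 2444 without 1 array. The deviations of same-numbered arrays correlated at 0.033, -0.067 and -0.0011 in the T cell pair and 0.098 in the stem cell pair. These values cannot settle whether the replicate numbers pair the samples. DP thymocytes hardly varied (SD 0.153), and LSC and HSC had 2 arrays each. Over all genes, T lymphoma minus DP thymocytes gave 838 calls as reported, 1826 with only the T cell arrays, 3531 with array weights, 383 to 1572 without 1 array and 320 with the sorted lymphoma alone, and LSC minus HSC gave 1313, then 0 with only its own arrays (1535 at an unadjusted p under 0.05), 96 with array weights, 822 with the block and 774 to 2716 without 1 array.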
